A study of Mus musculus with 2 samples.

Results

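Matricellular proteins are secreted into the extracellular matrix, where they bind collagens, growth factors, proteases and cell surface receptors more than they bear load. Most are kept low in resting adult connective tissue and are made in quantity during development, in tendon and cartilage, and after wounding or fracture. The 10 genes described here, of 32285 in the files, are *Thbs1*, *Thbs2*, *Thbs3*, *Thbs4* and *Comp*, which encode thrombospondins, together with *Cilp*, *Postn*, *Tnc*, *Sparc* and *Cthrc1*. They were chosen by name, with earlier results of these data known, and each symbol matched 1 row of the count matrices.

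The cells came from littermate mice described as male that carried Clec3b.creERT2 and Ai14.R26.tdTomato. Tamoxifen, given 2 weeks before a stabilized fracture of the right femur, switched on the red fluorescent protein tdTomato for good in cells using *Clec3b* and in whatever those cells later gave rise to. At 3 weeks after surgery, intact femoral diaphyses with their muscle (intact) and fracture calluses (callus) of the same 3 mice were pooled by limb, digested with collagenase, sorted for tdTomato and sequenced as 1 single-cell 3′ library each. Both libraries thus share the genotype, the tamoxifen and the mice, the label marks history and not present *Clec3b* use, and with 1 library per condition there is no replicate, no test and no standard error between them.

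Cells were kept from 500 genes upward and up to 10% mitochondrial UMIs (unique molecules counted), which left 1207 of 1872 in the intact library, at a median of 4939 UMIs, and 3295 of 3987 in the callus library, at 6843. The libraries shared 1 barcode. Of the fibroblasts with over 5000 UMIs, 97.5% of 198 in the intact and 98.1% of 157 in the callus library had *Xist*, which female cells make, while 4 Y-linked genes held 1 and 0 UMIs. This goes against the male label in both libraries alike. Most sorted cells were not stromal, and 682 of the kept intact and 2002 of the kept callus cells passed the gate of a blood cell type, so levels are described by type. The paper reports no meaningful tdTomato in its blood and endothelial cells and regards them as artifacts of the sort. Such cells are therefore not taken here as progeny of cells using *Clec3b*.

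Cells with summed collagen and fibroblast markers of at least 50 per 10000 UMIs, and under 5 of haematopoietic and of endothelial markers, were split by marker lists that hold none of the 10 genes. Pi16-gated fibroblasts (215 intact, 122 callus) carried markers of the *Pi16*-type fibroblast, and Col15a1-gated fibroblasts (53 and 29) those of the *Col15a1*-type. Low-marker fibroblasts (17 and 63) carried too few of either. There were 25 osteoblast-gated and 27 BMSC-gated (bone marrow stromal) cells in the callus, against 1 and 0 in the intact library, and 4 intact and 9 callus tenocyte-gated cells. Of the fibroblasts, 13.3% of the intact and 22.4% of the callus cells lay within 1.5-fold of a fibroblast limit, so the types grade into each other. Levels are given as UMIs per 1000000 UMIs of the type (CPM) with exact 95% Poisson intervals, which cover counting error only and neither cells nor mice. Counts from 3′ ends do not scale with transcript length, so levels of different genes compare numbers of molecules. Levels alone do not tell fewer carrying cells from less RNA per cell. Shares of cells do so only in part, since a cell with little RNA of a gene can show no UMI.

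B-lineage cells, which should lack these genes, set the background from free RNA. Of 253 intact and 558 callus B-lineage cells thinned to 2000 UMIs each, at most 2.37% carried *Sparc* and at most 0.395% carried any other of the 10 genes. Median depths before thinning differed between types, and shares of cells are therefore given after thinning, with exact Clopper-Pearson intervals.

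**Figure D1:**
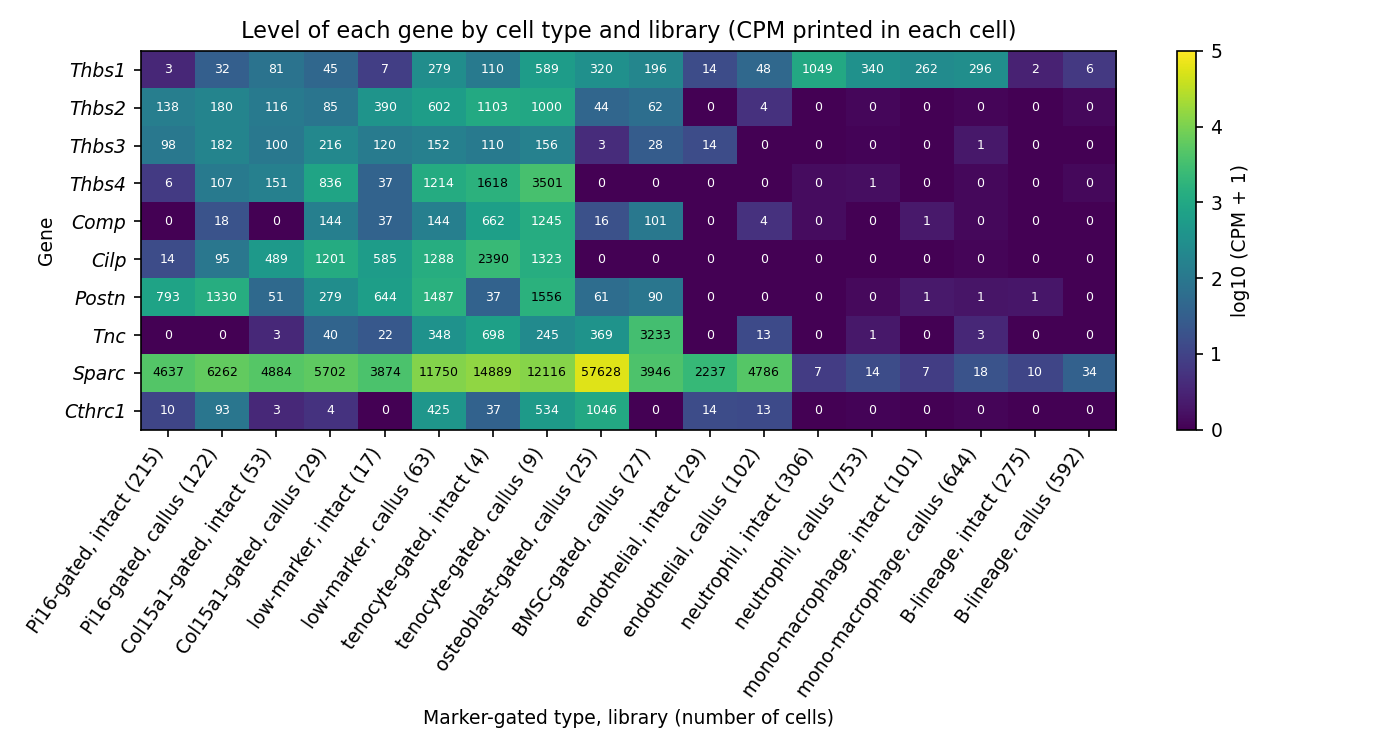
CPM of the 10 genes (rows) in marker-gated types of each library (columns, number of cells in brackets), coloured on a log10 scale; the intact osteoblast-gated column, with 1 cell, is left out. *Sparc* reached 57628 CPM in osteoblast-gated cells and *Tnc* 3233 CPM in BMSC-gated cells, while *Thbs4* and *Cilp* were at 0 in both of those types.

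*Thbs4* and *Cilp* were both higher in the callus in each gated fibroblast type, and in both libraries often lay in the same cells. *Thbs4* encodes a thrombospondin of tendon and muscle matrix, and *Cilp* (cartilage intermediate layer protein) a cartilage matrix protein that binds TGF-β. The bases just before the start of each are shown because, of the members compared, these were the most alike across fibroblasts. Members in at least 20% of fibroblasts were compared with genes in at least 5%, so *Comp* and *Tnc* were not among them. They are from RefSeq on GRCm38.p6, 250 bases read 5′ to 3′ in the direction of the gene, for *Thbs4* chr13:92794819-92795068 (minus strand) and for *Cilp* chr9:65264930-65265179 (plus strand). Of the 10 genes, 7 have an entry in the table. Capitals mark matches, on either strand, to TATAA (TATA box), CATTCC (M-CAT) or TGANTCA (AP-1).

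Thbs4: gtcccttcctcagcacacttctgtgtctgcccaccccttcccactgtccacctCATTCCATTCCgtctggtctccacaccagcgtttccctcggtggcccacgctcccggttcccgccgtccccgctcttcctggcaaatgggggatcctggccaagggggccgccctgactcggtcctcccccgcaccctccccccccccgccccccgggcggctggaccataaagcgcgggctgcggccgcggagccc
Cilp: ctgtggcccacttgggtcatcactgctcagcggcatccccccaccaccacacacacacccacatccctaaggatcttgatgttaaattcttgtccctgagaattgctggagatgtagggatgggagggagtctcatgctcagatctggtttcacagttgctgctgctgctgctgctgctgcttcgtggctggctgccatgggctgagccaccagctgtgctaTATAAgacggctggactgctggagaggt

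The *Thbs4* window held 2 overlapping CATTCC matches, from 197 and from 192 bases before the start, and no TATAA or TGANTCA. The *Cilp* window held 1 TATAA match, from 28 bases before the start, and neither of the others. Of 32851 windows of the same length, 22.8% held TATAA, 12.6% held CATTCC (1.02% at 2 or more places) and 6.75% held TGANTCA. The 2 windows shared no match among these motifs. The E-box letters CANNTG, bound by many helix-loop-helix factors, were at 1 place before *Thbs4* and 3 before *Cilp*, and were in 66.2% of all windows. Of the *Thbs4* bases 70.8% were G or C, against 56.0% of the *Cilp* bases.

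In Pi16-gated fibroblasts *Thbs4* stood at 5.92 CPM (2.71 to 11.2) in the intact library and 107 CPM (86.7 to 130) in the callus, a log2 ratio of 4.17 (3.19 to 5.34). In Col15a1-gated fibroblasts it went from 151 CPM (114 to 196) to 836 CPM (721 to 966), a log2 ratio of 2.47 (2.03 to 2.93). The 17 intact low-marker fibroblasts had 37.5 CPM (12.2 to 87.4) and the 63 callus ones 1214 CPM (1129 to 1304). All 3 types were thus higher in the callus, where Pi16-gated cells were lowest. The share of thinned cells carrying *Thbs4* went from 11.8% (4.44 to 23.9) to 39.3% (21.5 to 59.4) in Col15a1-gated and from 12.5% (1.55 to 38.3) to 52.7% (38.8 to 66.3) in low-marker fibroblasts, with intervals that overlap slightly in the former and just miss each other in the latter. In Pi16-gated fibroblasts only 0.518% and 3.54% carried it, and 3 cells held 67.7% of the callus UMIs. No UMI was found in 25 osteoblast-gated and 27 BMSC-gated cells, which allows up to 6.05 and 20.7 CPM. The 9 callus tenocyte-gated cells all carried it, at 3501 CPM.

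*Cilp* went from 13.8 CPM (8.55 to 21.1) to 94.8 CPM (76.0 to 117) in Pi16-gated fibroblasts, a log2 ratio of 2.78 (2.08 to 3.54). There 2.59% (0.85 to 5.94) and 5.31% (1.97 to 11.2) of thinned cells carried it, with intervals that overlap, and 3 cells held 69.3% of the callus UMIs. In Col15a1-gated fibroblasts it went from 489 CPM (420 to 565) to 1201 CPM (1061 to 1354), a log2 ratio of 1.30 (1.02 to 1.58). Low-marker fibroblasts had 585 CPM (462 to 730) in the intact and 1288 CPM (1201 to 1381) in the callus library. Unlike *Thbs4*, *Cilp* was already in 33.3% of thinned intact Col15a1-gated and in 8 of 16 intact low-marker cells, and in 14 of 28 and 50.9% of the callus ones, so in low-marker cells the level differed while the share did not detectably do so. In callus Col15a1-gated fibroblasts 1 cell held 42.7% of the *Cilp* UMIs, and with the highest cell of each group left out the log2 ratio was 0.94. *Cilp* was at 0 in osteoblast-gated and BMSC-gated cells.

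Of 44 thinned callus fibroblasts with *Thbs4*, 77.3% also carried *Cilp*, against 24.5% of all 196, and 34 cells carried both, 3.16 times the product of the shares. Thinned intact fibroblasts gave 6 of 9, or 5.78 times the product, so sharing a cell was not particular to the callus. Within callus Col15a1-gated fibroblasts alone, 9 of 11 cells with *Thbs4* carried *Cilp*, 1.64 times the product. In that type 14 of 28 thinned cells carried *Cilp*, and a larger share lowers the highest value this ratio can reach. The 1.64 therefore cannot be set against the pooled 3.16, and the other fibroblast types are not given here. The part of differences between types in the pooled figure was not tested. Across 456 thinned fibroblasts of both libraries, Pearson's r of log2 counts was 0.68 between *Thbs4* and *Cilp*, above that of either with any other of the 5370 genes compared. The closest of these to *Thbs4* were *Angptl1* (0.55), *C1qtnf3* (0.54) and *Mfap4* (0.53), and to *Cilp* *Mgp* (0.57), *Angptl1* (0.55) and *Hmcn2* (0.53). These points share types and libraries, and the values are descriptions.

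*Comp*, which encodes the pentameric thrombospondin of cartilage and tendon, was rarer. It had 0 UMIs in intact Pi16-gated and Col15a1-gated fibroblasts. Callus Pi16-gated fibroblasts had 17 UMIs, all in 1 cell, and callus Col15a1-gated ones 32 UMIs, 93.8% of them in 1 cell. Its 17.8-fold higher level in the latter, with the intact zero set to 3 counts, thus rests on that cell. Its low-marker levels were 37.5 CPM (12.2 to 87.4) and 144 CPM (116 to 177), and in thinned shares at 12.5% and 18.2%. Of 12 thinned callus fibroblasts with *Comp*, 10 carried *Thbs4* and 9 carried *Cilp*. Tenocyte-gated cells had the highest levels, 662 CPM in 4 intact and 1245 CPM in 9 callus cells. BMSC-gated cells, with no *Thbs4* or *Cilp*, had *Comp* at 101 CPM (59.9 to 160), in 5 of 27 cells unthinned, and without its highest cell the level was 54.0 CPM.

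The other thrombospondins differed from these. *Thbs2*, which encodes a trimeric thrombospondin of connective tissue that binds CD47 and CD36, had an intact level of 138 CPM (120 to 158) and a callus level of 180 CPM (154 to 209) among Pi16-gated fibroblasts. Among Col15a1-gated ones these were 116 CPM (84.0 to 156) and 85.4 CPM (51.4 to 133). It was highest in tenocyte-gated cells, at 1103 CPM in 4 intact and 1000 CPM in 9 callus cells. Among fibroblasts the low-marker ones had most, at 390 CPM (291 to 511) and 602 CPM (542 to 666). The larger share of low-marker cells in the callus thus enters its log2 ratio over all fibroblasts. That ratio was 1.07 (0.87 to 1.28) although neither of the other fibroblast types reached 2-fold. *Thbs3*, whose product is related to those of *Thbs4* and *Comp*, was at much the same level in the 3 intact fibroblast types, 98.0 to 120 CPM. It went from 98.0 CPM (82.9 to 115) to 182 CPM (156 to 212) in Pi16-gated fibroblasts and from 99.9 CPM (70.3 to 138) to 216 CPM (159 to 286) in Col15a1-gated ones, log2 ratios of 0.89 (0.57 to 1.22) and 1.11 (0.46 to 1.77). No cell held over 18.8% of its UMIs in these 4 groups. *Thbs3* lies at chr3:89215180-89226837 of GRCm38 and overlaps *Mtx1* on the opposite strand, and the sources used here do not say whether the counting used strand.

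*Thbs1*, which encodes the thrombospondin of platelets and wounds that activates latent TGF-β, was mostly a gene of the non-stromal cells. Of its UMIs, 88.0% in the intact and 53.2% in the callus library were in neutrophil-gated cells, and 9.03% and 33.8% in mono-macrophage-gated cells, against 1.44% and 3.70% in fibroblasts. The 306 intact neutrophils had 1049 CPM (1005 to 1095) and the 753 callus ones 340 CPM (328 to 353), a log2 ratio of −1.62 (−1.70 to −1.54), and in thinned cells its share was 65.1% (59.4 to 70.5) and 31.7% (28.4 to 35.2). The lower callus level held in neutrophils with at least 100 *Ngp* and *Camp* UMIs per 10000, the genes of immature granules, at 913 and 310 CPM, and in those with fewer, at 1625 and 602 CPM. In mono-macrophages its level was 262 CPM (228 to 299) and 296 CPM (283 to 310), with an interval of the log2 ratio of −0.02 to 0.39.

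Among stromal cells *Thbs1* had the opposite direction in the Pi16-gated fibroblasts, at 2.63 CPM (0.72 to 6.74) in the intact and 32.3 CPM (21.8 to 46.1) in the callus library, a log2 ratio of 3.62 (2.11 to 5.58). That ratio rests on 4 intact UMIs in 2 cells. In thinned cells the shares were 0.518% (0.01 to 2.85) and 3.54% (0.97 to 8.82), with intervals that overlap. Low-marker fibroblasts had 7.49 CPM (1 UMI) and 279 CPM (239 to 324). In the callus 1 cell held 29.9% of these UMIs, and without it the level was 201 CPM. Col15a1-gated fibroblasts had 81.0 CPM (54.6 to 116) and 45.0 CPM (21.6 to 82.7), with a log2 ratio of −0.85 whose interval (−2.05 to 0.22) holds 0. That direction depends on how the type is drawn. It turned to 0.41 with gate limits halved and to 2.52 with types from clusters (described later). There 1 low-marker cell held 52 of the 60 callus UMIs, so the 2.52 rests on that cell. Osteoblast-gated and BMSC-gated cells carried it at 320 CPM (276 to 368) and 196 CPM (137 to 273), in 39.1% and 37.5% of thinned cells. The 9 callus tenocyte-gated cells had more, 589 CPM (441 to 771), in 6 of 9 thinned cells. B-lineage cells had 2.04 and 5.85 CPM, so the intact Pi16-gated level was within the background and the callus one above it. Summed neutrophil markers in Pi16-gated fibroblasts were 177 CPM in the intact and 325 CPM in the callus library and moved the same way as *Thbs1*. Their part in its rise was not tested.

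**Figure D2:**
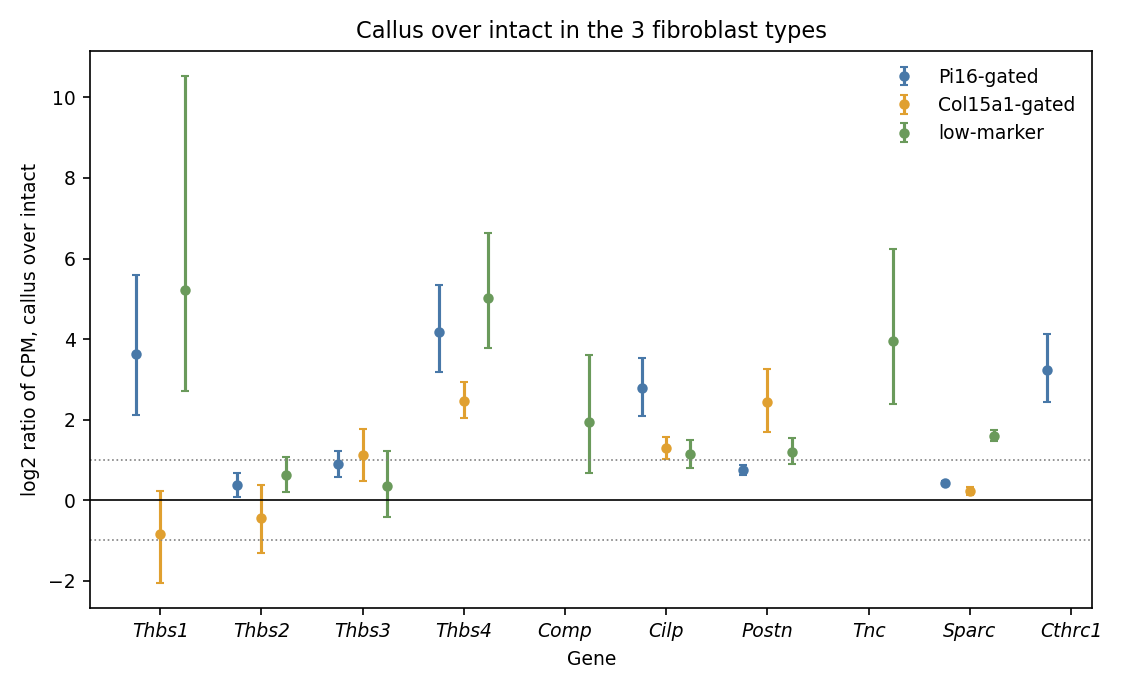
Log2 ratio of CPM, callus over intact, for each gene in the 3 fibroblast types, with exact 95% intervals for counting error; dotted lines mark 2-fold, and genes with under 20 UMIs or with 0 in a library have no point. *Thbs4* and *Cilp* lie above 1 in all 3 types, while *Thbs1* was 3.62 in Pi16-gated and −0.85 in Col15a1-gated cells. With types from clusters, not plotted, the Col15a1-type values were 0.67, 0.53 and 2.52 for *Thbs4*, *Cilp* and *Thbs1*, and the last rests on 1 cell.

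*Postn* was the fibroblast gene that told the 2 types apart in the other direction. It encodes periostin, a protein of periosteum, tendon and healing tissue that aids collagen cross-linking. In Pi16-gated fibroblasts it was at 793 CPM (749 to 839) in the intact and 1330 CPM (1256 to 1406) in the callus library, and in Col15a1-gated ones at 51.3 CPM (30.9 to 80.1) and 279 CPM (214 to 357). Col15a1-gated cells thus had less of it in both libraries, by log2 ratios of −3.95 (−4.69 to −3.30) and −2.25 (−2.65 to −1.89). The callus over intact ratio was 0.75 (0.63 to 0.86) in Pi16-gated and 2.44 (1.68 to 3.27) in Col15a1-gated fibroblasts. Its share of thinned cells went from 59.6% (52.3 to 66.6) to 75.2% (66.2 to 82.9) in the former and from 3.92% (0.48 to 13.5) to 32.1% (15.9 to 52.4) in the latter, where the intervals do not overlap. Its low-marker levels were 644 and 1487 CPM. Osteoblast-gated and BMSC-gated cells had 60.6 and 89.8 CPM, and without the highest cell of each 11.9 and 47.2 CPM. The genes nearest to *Postn* across thinned fibroblasts were *Fn1* (r = 0.42), *Sfrp2* (0.36) and *Col14a1* (0.33).

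*Tnc* encodes tenascin C, a large matrix protein that loosens cell adhesion and is known from wounds and tendon. It had 0 UMIs in 215 intact and 122 callus Pi16-gated fibroblasts, which allows up to 2.43 and 3.97 CPM. Its highest level was in BMSC-gated cells, at 3233 CPM (2974 to 3508) and in 24 of 24 thinned cells (85.8% to 100%), with no cell over 10.6% of the UMIs. They held 41.2% of the *Tnc* UMIs of the callus, and cells outside every gate held 22.6%. In the intact library 82.6% of 23 *Tnc* UMIs were in the 4 tenocyte-gated cells, at 698 CPM (421 to 1091). Osteoblast-gated cells had 369 CPM (322 to 420) in 26.1% of thinned cells, but 1 cell held 60.0% of it, and without that cell the level was 154 CPM. Low-marker fibroblasts had it at 22.5 CPM, 3 UMIs of 1 cell, in the intact and 348 CPM (303 to 398) in the callus library, where 18.2% (9.08 to 30.9) of thinned cells carried it. Of these 217 callus UMIs, 97 lay in 3 cells that fell in the BMSC cluster described later and 104 in the *C1qtnf3*-led one. The cells left unnamed by clustering had 4.83 CPM. Col15a1-gated fibroblasts had 1 and 9 UMIs, a ratio of 15.0 with a log2 interval of 1.05 to 9.36. *Tnc* lies at chr4:63959785-64047015 and overlaps 8030451A03Rik, a transcript of the opposite strand.

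*Sparc* was the most abundant member in every stromal type but in BMSC-gated cells stood close to *Tnc*. It encodes osteonectin, a collagen-binding glycoprotein of bone and basement membrane. Pi16-gated fibroblasts had 4637 CPM (4530 to 4747) and 6262 CPM (6103 to 6426), and Col15a1-gated ones 4884 CPM (4661 to 5114) and 5702 CPM (5393 to 6025), intact and callus. The log2 ratios of 0.43 (0.38 to 0.48) and 0.22 (0.12 to 0.33) are small, and at least 96.4% of thinned cells of each of these groups carried it. Low-marker fibroblasts had 3874 and 11750 CPM, but 1 callus cell held 33.3% of the UMIs, and without it the level was 8422 CPM. Osteoblast-gated cells had 57628 CPM (57027 to 58234), so that 25 cells held 61.5% of all *Sparc* UMIs of the 3295 callus cells. Endothelial-gated cells also carried it, the 29 intact ones at 2237 CPM (1907 to 2608) and the 102 callus ones at 4786 CPM (4592 to 4986).

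*Cthrc1* encodes a secreted protein of collagen-producing cells in wounds and bone. Pi16-gated fibroblasts had 9.87 CPM (5.52 to 16.3) in the intact and 92.7 CPM (74.1 to 114) in the callus library, a log2 ratio of 3.23 (2.43 to 4.13), and 1 callus cell held 55.8% of it. With the highest cell of each library left out the ratio was 2.81, and with types from clusters it was 1.15. Col15a1-gated fibroblasts had 1 UMI in each library. Low-marker fibroblasts had 0 UMIs in 17 intact cells, which allows up to 27.6 CPM, and 425 CPM (375 to 480) in the callus. There 27.3% (16.1 to 41.0) of thinned cells carried it and 1 cell held 46.4%. The highest level was in osteoblast-gated cells, 1046 CPM (966 to 1130) in 73.9% (51.6 to 89.8) of thinned cells. BMSC-gated cells had 0 UMIs, which allows up to 20.7 CPM. Of 24 thinned callus fibroblasts with *Cthrc1*, 83.3% carried *Postn*, against 65.8% of all.

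**Figure D3:**
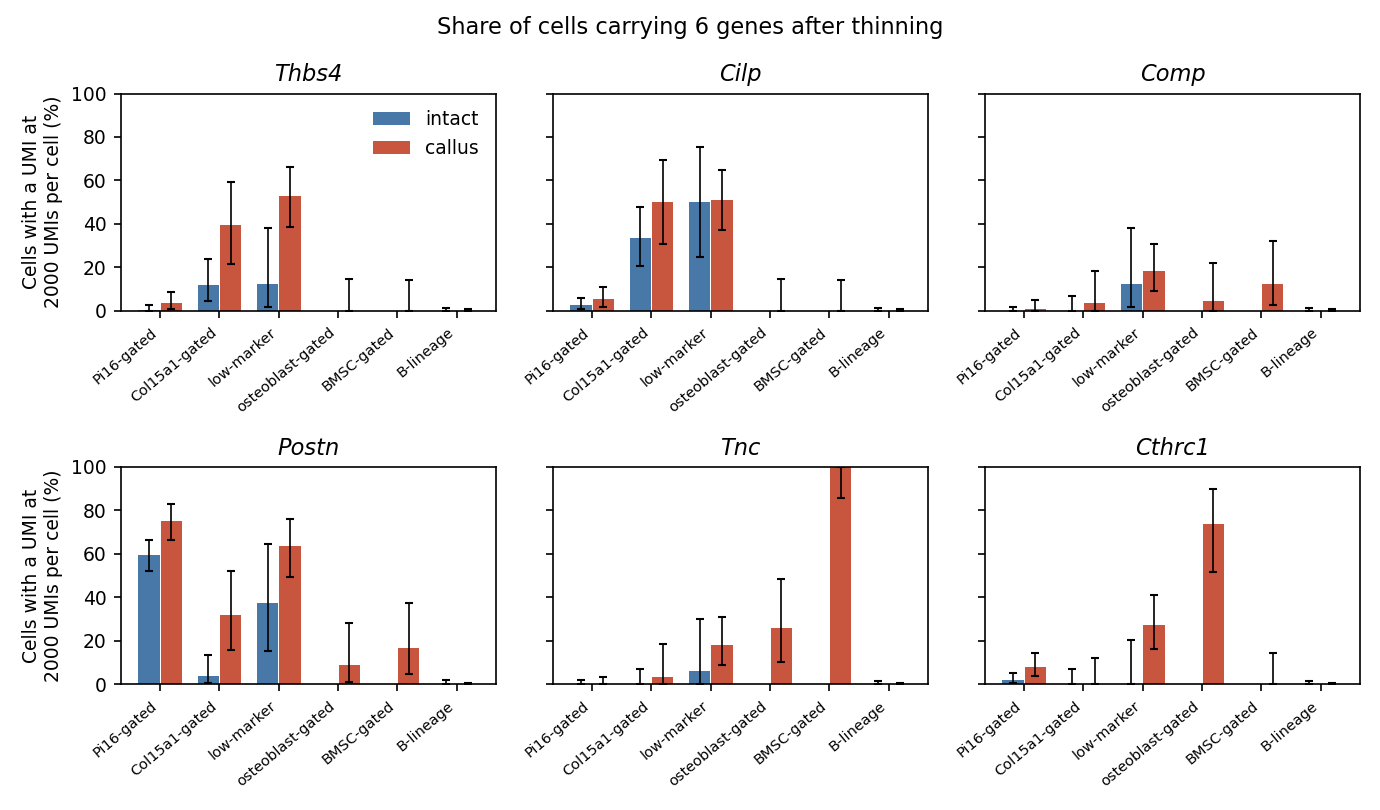
Percentage of cells with at least 1 UMI after each cell was thinned to 2000 UMIs, for 6 genes by type and library, with exact 95% Clopper-Pearson intervals; groups under 10 thinned cells have no bar. *Postn* was in 59.6% of intact Pi16-gated and 3.92% of intact Col15a1-gated cells, *Tnc* in all BMSC-gated cells and *Cthrc1* in 73.9% of osteoblast-gated cells.

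Counted together, 4 of the 8 members with at least 20 UMIs were at least 2-fold higher in callus than in intact Pi16-gated fibroblasts (*Thbs1*, *Thbs4*, *Cilp*, *Cthrc1*), where 3.22% of 8824 genes were. None was 2-fold lower, as 2.75% of genes were. The 20 UMIs were summed over both groups, here and below, so a gene can pass through 1 group alone. *Thbs1*, *Thbs4* and *Cthrc1* had 4, 9 and 15 intact UMIs and so passed only through the callus. In Col15a1-gated fibroblasts 5 of 8 were higher and none lower, against 5.57% and 5.34% of 4721 genes. One of the 5, *Comp*, had no intact UMI and so was counted only through the callus. *Postn*, with 19 intact UMIs, also passed 20 UMIs only through the callus. Among members with a UMI in each library 4 of 7 were higher (*Thbs3*, *Thbs4*, *Cilp*, *Postn*), against 5.53% of 4719 genes. Without the highest cell of each library *Comp* and *Cilp* lost 2-fold and *Thbs1* was 2-fold lower. Over all fibroblasts 7 of 10 were higher and none lower, against 5.31% and 2.73% of 10090 genes, and 217 of the 226 callus *Tnc* UMIs in that sum were those of low-marker cells. There *Comp*, *Tnc* and *Cthrc1* had 5, 4 and 16 intact UMIs and passed only through the callus. The members' median log2 ratio was 1.84, 1.11 (without *Comp*) and 2.52 in these comparisons and that of all counted genes 0.03, 0.03 and 0.02. The third comparison holds the cells of the other two, so these counts are not separate evidence. The 10 genes were chosen with earlier results of these data known. The counts beside the shares of all genes, here and below, therefore only describe.

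Between the fibroblast types, *Thbs1*, *Thbs4* and *Cilp* were at least 2-fold higher and *Postn* lower in Col15a1-gated than in Pi16-gated intact cells, 3 and 1 of 7 members, where 8.55% and 10.4% of 8189 genes were. In the callus *Thbs4*, *Comp* and *Cilp* were higher and *Thbs2*, *Postn* and *Cthrc1* lower, 3 and 3 of 9, against 7.67% and 9.61% of 6845 genes. *Thbs4*, *Cilp* and *Postn* thus kept their sides in both libraries. *Thbs1* was at a log2 ratio of 4.94 (3.44 to 6.91) in the intact and 0.48 (−0.72 to 1.55) in the callus library. In the callus 1 Col15a1-gated cell held 30 of 32 *Comp* UMIs and 1 Pi16-gated cell all 17. *Cthrc1* was at 1 UMI against 86, of which 1 cell held 48. Without the highest cell of each type 2 members were higher and 3 lower. With types from clusters (described later) *Thbs1*, *Thbs4* and *Cilp* were higher in the callus and only *Postn* lower. There 1 cell held 52 of the 60 *Col15a1*-type *Thbs1* UMIs.

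Against callus fibroblasts, osteoblast-gated cells had 4 members at least 2-fold higher (*Thbs1*, *Tnc*, *Sparc*, *Cthrc1*) and 6 lower, where 5.24% and 42.8% of 8897 genes were and the median of all genes was −0.80. Without the highest cell of each group *Tnc* was at a log2 ratio of 0.83, so its call rests on 1 cell. BMSC-gated cells had 1 higher (*Tnc*) and 7 lower, with *Thbs1* and *Comp* within 2-fold, against 17.2% and 14.5% of 8734 genes. Without the highest cell *Sparc*, at −0.84, was no longer 2-fold lower. *Comp* moved with the setting, at a log2 ratio of 0.37 by gates and −0.17 without the highest cell. With types from clusters (described later) *Comp* was at 3.03 and so higher. *Tnc* was at 4.67 by gates and 9.46 with types from clusters, and *Cthrc1* in osteoblast-type cells at 2.40 and 5.68. Members at 0 in a bone type were counted only through the fibroblasts, and with a UMI required in each group 4 of 8 were lower in osteoblast-gated and 4 of 7 in BMSC-gated cells, against 39.5% and 13.4% of genes. The 2 bone types differed from each other in *Cthrc1*, at 1046 CPM and 0, and in *Sparc* and *Tnc*, whose intervals lay far apart in opposite directions. They were alike in lacking *Thbs4* and *Cilp*.

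The gates leave the low-marker cells undescribed, so stromal cells were also clustered without the 10 genes. Of 8 clusters, 1 was led by *C1qtnf3*, *Fmod*, *Thbs4*, *Egfl6* and *Igfbp3* and held 23 intact and 78 callus cells. Its highest-scoring marker list was the tenocyte list, at 2.55 against −0.21 for the next. Of its 76 thinned callus cells *Tnmd* was in 9.21%, *Scx* in 3.95% and *Fmod* in 17.1%. In the other callus clusters *Fmod* was in 0%, *Tnmd* in at most 4.35% and *Scx* in at most 4.55%. Since few of its own cells carried each of these, it is called here by its leading genes, *Fmod* among them. It took 71.4% of the low-marker, 37.9% of the Col15a1-gated and 10.7% of the Pi16-gated callus fibroblasts, and all 9 callus tenocyte-gated cells. It held 93.4% of the 1357 *Thbs4* UMIs of callus stromal cells, 88.6% of those of *Cilp*, 86.4% of *Comp*, 74.2% of *Thbs2* and 50.5% of *Postn*, but 12.6% of *Tnc*, 12.3% of *Sparc* and 20.4% of *Cthrc1*. Of callus *Thbs3* it held 174 of 333 UMIs and of *Thbs1* 158 of 497. In the intact library it held 42.1% of *Thbs4*, 54.8% of *Cilp* and 6.18% of *Postn*. The cluster had 78 of the 276 callus stromal cells but 23 of the 290 intact ones. Its shares in the 2 libraries therefore cannot be set directly against each other.

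Within this *C1qtnf3*-led cluster the levels also differed between the libraries. *Thbs4* was at 274 CPM (202 to 363) in the intact and 1680 CPM (1589 to 1775) in the callus cells, and was carried by 17.4% (4.95 to 38.8) of 23 and 59.2% (47.3 to 70.4) of 76 thinned cells. Before thinning 30.4% and 67.9% carried it, at median depths of 8106 and 8930 UMIs. *Postn* was at 462 CPM (367 to 574) and 1619 CPM (1530 to 1712). *Cthrc1* was at 5.70 CPM, 1 UMI, and 281 CPM (245 to 322), and *Thbs1* at 28.5 CPM (9.25 to 66.5) and 210 CPM (178 to 245). *Cilp* differed less, at 1077 CPM (929 to 1242) and 1501 CPM (1415 to 1591), and *Thbs2*, at 502 CPM (402 to 618) and 679 CPM (621 to 740), had intervals that just miss each other. *Tnc* was at 125 CPM (78.6 to 190) and 175 CPM (146 to 208), which overlap.

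With types from clusters, which set this cluster apart, 2 of 6 members counted were at least 2-fold higher in callus than intact *Pi16*-type cells (*Thbs1* and *Cthrc1*). In the *Col15a1*-type cluster 2 of 7 were, *Postn* and, through 1 cell, *Thbs1*. Of all genes 3.46% and 6.9% were. By gates the counts of members were 4 of 8 and 5 of 8. The *Pi16*-type clusters also leave out 2 clusters that no marker list named. Both scored highest for the Pi16 list, at 0.99 and 0.46 against the limit of 1. These took 32.6% and 11.2% of the intact Pi16-gated cells and 35.2% and 7.38% of the callus ones. Together the unnamed cells had *Thbs4* at 8.29 and 91.7 CPM and *Cilp* at 18.2 and 104 CPM, intact and callus, in few callus cells. In the first of the 2 clusters *Thbs4* was at 10.2 and 51.6 CPM and *Cilp* at 22.5 and 57.6 CPM. Of its 45 callus cells 3 and 2 carried them. The part of the unnamed cells, and of the naming limit that the first cluster only just missed, in the lower counts was not tested. *Thbs4* and *Cilp* fell under 20 UMIs in the *Pi16*-type clusters and were at log2 ratios of 0.67 and 0.53 in the *Col15a1*-type one. In the *Pi16*-type clusters *Thbs4* was at 3.21 and 14.3 CPM and *Cilp* at 5.36 and 2.38 CPM, intact and callus. In fibroblasts outside the cluster the log2 ratio was 1.35 for *Thbs4*, 0.80 for *Cilp* and −0.0030 for *Thbs2*, against 4.09, 2.24 and 1.07 over all gated fibroblasts. How much of the callus difference is more cells of this kind in the sort and how much a higher level per cell cannot be told apart with 1 library each, since the sort and the dissection set the numbers of cells.

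**Figure D4:**
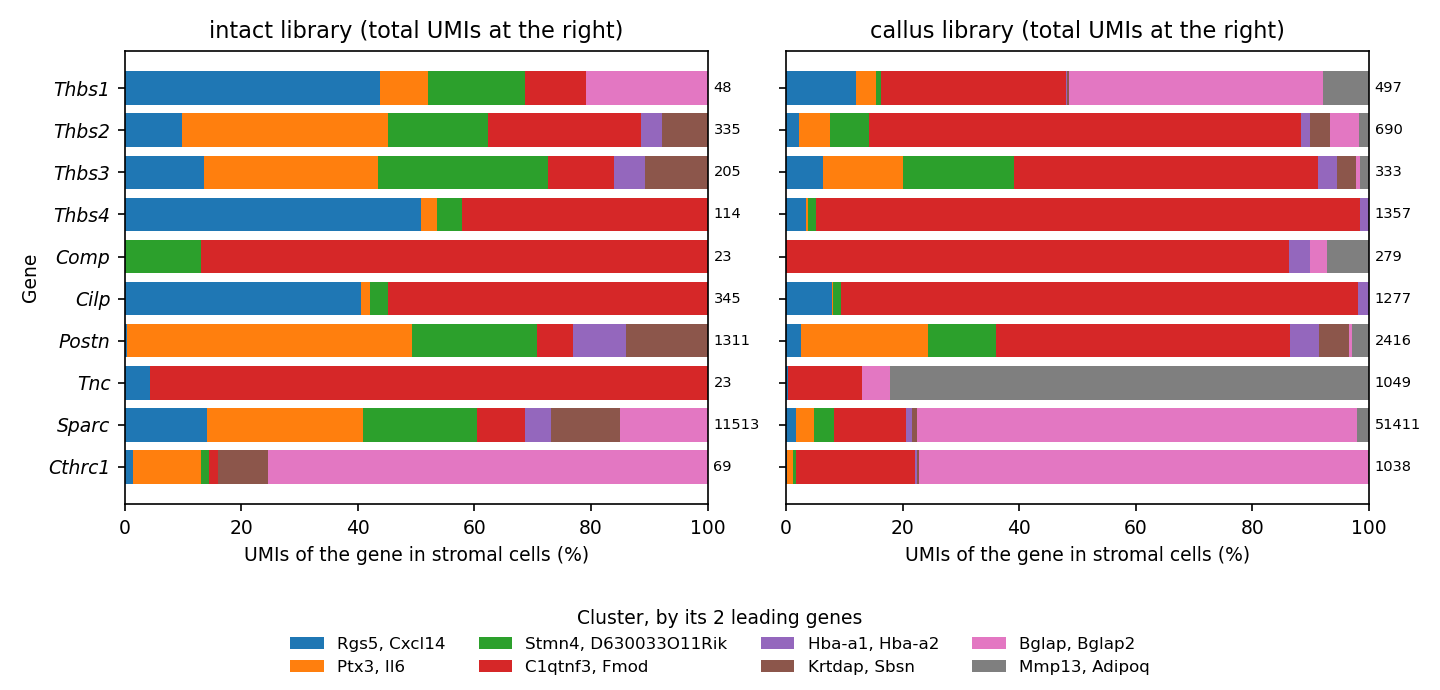
Share of each gene's UMIs in stromal cells held by each of 8 clusters made without the 10 genes (bars, 100% in all, clusters named by their 2 leading genes), for each library; totals stand at the right. In the callus the *C1qtnf3*, *Fmod* cluster held 93.4% of *Thbs4*, the *Bglap* cluster most of *Sparc* and *Cthrc1*, and the *Mmp13*, *Adipoq* cluster, which had no intact cell, most of *Tnc*. The *C1qtnf3*, *Fmod* cluster had 78 of 276 callus and 23 of 290 intact stromal cells.

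The members were not spread evenly over cells. Leaving out *Sparc*, which nearly all carried, the median thinned low-marker callus cell carried 3 of the other 9 genes and 47.3% of 55 carried at least 4, against 12.5% of 16 intact ones. In Pi16-gated fibroblasts 0.518% and 6.19% carried at least 4, and in Col15a1-gated ones 1.96% and 14.3%. None of the 9 was found in 24.4% and 17.7% of Pi16-gated and 47.1% and 25.0% of Col15a1-gated cells.

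Of the other genes of the field, lists were counted the same way and were likewise chosen with earlier results of these data known. Other matricellular genes were at least 2-fold higher in callus for 3 of 14 counted in Pi16-gated and 4 of 14 in Col15a1-gated fibroblasts, and lower for none, with medians of 0.33 and 0.53, beside 3.22% and 5.57% of all genes higher and medians of 0.03 in each. Of these *Matn2*, which encodes a matrilin, was higher in both, from 5.26 to 29.1 CPM and from 27.0 to 112 CPM. Receptors and scavengers of these proteins had 0 of 15 and 0 of 13 past 2-fold in either direction, where 2.75% and 5.34% of all genes were lower, and the most abundant, *Lrp1*, *Cd47* and *Itgb1*, had log2 ratios between −0.41 and 0.04. Among partners and TGF-β genes 2 of 27 and 5 of 26 were higher and 0 and 1 lower. *Lox*, the collagen cross-linking enzyme, went from 20.4 to 80.8 CPM and from 91.8 to 234 CPM. *Fn1* (fibronectin) was at 3109 and 5254 CPM in Pi16-gated fibroblasts. *Spp1* (osteopontin) was at 8255 CPM in osteoblast-gated, 4473 CPM in BMSC-gated and 9096 CPM in low-marker callus cells but at most 3.23 CPM in the other fibroblast types. The low-marker callus cells include 6 of the *Bglap*-led and 3 of the BMSC cluster, and their part in this *Spp1* level was not tested.

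Markers of other cells in the fibroblasts bear on these levels. Tenocyte markers summed to 0 CPM in callus Col15a1-gated cells, with all 6 at 0, and to 156 CPM in callus low-marker cells, with 5 of 6 present, against 15.0 CPM in intact ones. Osteoblast markers in low-marker cells summed to 345 and 2214 CPM, intact and callus, with 8 of 10 at 0 in the intact library and none in the callus, where 6 of the 63 cells fell in the *Bglap*-led cluster. Those 6 held 53.9% of the *Sparc* and 61.9% of the *Cthrc1* UMIs of callus low-marker cells, and 3 further cells, in the BMSC cluster, held 44.7% of the *Tnc* UMIs. *Sparc*, *Tnc* and *Cthrc1* in low-marker cells moved with them, and the part of such cells in those 3 genes was not tested. Myofibre markers were at 128 and 766 CPM in Pi16-gated fibroblasts, and myofibre-gated cells had at most 28.5 CPM of any of the 10 genes. Immediate-early genes summed to 13659 and 12509 CPM in Pi16-gated and 27199 and 21415 CPM in Col15a1-gated fibroblasts.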

How the data were processed

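Whole-number UMI counts per gene and cell were deposited by the authors, made with Cell Ranger (6.0.0 in the file header) on mm10 from 2 single-cell 3′ libraries, 1 per condition, each of the pooled tissue of 3 mice, with 12112002 (intact) and 36714322 (callus) UMIs. Per the labels, cells were sorted for tdTomato, a transcript not analysed here. The paper names no cell filter.

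The 10 genes, the marker lists and the pathway lists were chosen with earlier results of these data known. Cells entered from 500 genes upward if up to 10% of their UMIs were of mt- genes. Marker UMIs per 10000 set the gates: stromal at least 50, then osteoblast at least 200, BMSC 50, mural 50, tenocyte 10, and Pi16 or Col15a1 at least 30, whichever was higher, with the remainder low-marker. The limits were settled on marker sums without looking at the 10 genes. UMIs were summed per gate and library and divided by the gate's total (CPM, also called a level). Ratios have conditional exact binomial intervals, CPM exact Poisson and shares Clopper-Pearson intervals, each at the 95% level and covering counting error alone. A gene was counted from 20 UMIs over both groups, a zero was set to 3 counts in ratios, and 2-fold was the limit for counts of genes. Thinning drew 2000 UMIs per cell without replacement (seed 0), leaving out 25 intact and 18 callus fibroblasts that were shallower. With 1 library per condition no test was made, and no paired analysis was possible because no group has a replicate. Clusters came from scanpy 1.11.5 (2000 variable genes, 30 components, 15 neighbours, Leiden resolution 0.5), and were named where a marker list led by a mean log2 ratio of at least 1 and by 0.5 over the next. Genes named are the 10, pathway genes past 2-fold in both fibroblast types or among the 3 highest per list, and the 3 genes most like each member carried by at least 20% of fibroblasts. Those most like *Thbs2* (r at most 0.32), *Thbs3* (0.19) and *Sparc* (*Col1a1*, 0.52) are not described further. There were 14 alternatives listed at the outset and 2 added after seeing the data. Methods were tested on simulated data. Positions are of GRCm38 (GENCODE M21, 99.8% of gene IDs matched). Tools were python 3.11.15, numpy 2.4.6, scipy 1.17.1, pandas 2.3.3 and igraph 0.11.9.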

Additional observations from a re-analysis of the deposited data

Results flagged for a closer look

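*Thbs1* differed in direction between cell types. Its log2 ratio of callus over intact was 3.62 in Pi16-gated and 5.22 in low-marker fibroblasts and −1.62 in neutrophil-gated cells, with intervals for counting error that exclude 0 in each. The difference between the types was not tested, since each condition has 1 library. The low-marker value rests on 1 intact UMI and the Pi16-gated one on 4 intact UMIs in 2 cells.

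The 665 intact and 692 callus cells removed by the cell filter, which the main comparisons leave out, held the 10 genes at a higher level in the callus, with intervals that did not overlap. These cells were summed without a split by type, and the part of differing cell types in this was not tested. In removed callus cells *Sparc* was at 312 CPM, *Postn* at 21.02, *Tnc* at 12.4, *Thbs1* at 10.7, *Thbs4* at 10.3, *Cilp* at 5.36, *Cthrc1* at 4.12, *Thbs3* at 3.71, *Thbs2* at 3.30 and *Comp* at 3.30 CPM. In removed intact cells *Sparc* was at 13.3, *Thbs1* at 2.18 and the others at or below 0.65 CPM.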

How the results depend on the processing

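Of 44 gene ratios of at least 2-fold, 34 stayed at least 2-fold in the same direction under all alternatives that gave a value. Both ratios of at least 2-fold that turned were of *Thbs2*: over all fibroblasts its log2 callus over intact ratio was −0.0030 with types from clusters, and between Col15a1-gated and Pi16-gated callus fibroblasts its ratio was 0.085 with gate limits halved. Of 18 ratios under 2-fold, 10 changed sign under some alternative, and 1 of these reached 2-fold on the other side. This was *Thbs1* callus over intact in the Col15a1 type, from −0.85 to 2.52 with types from clusters, a value that rests on 1 cell. Types from clusters moved 5 of 14 counts of members at least 2-fold apart, more than any other setting. The count higher in callus went to 2 in Pi16-type, 2 in Col15a1-type and 3 in all fibroblasts. The count higher in BMSC-type cells than fibroblasts went to 2 (*Comp* and *Tnc*), and the count lower in Col15a1-type than Pi16-type callus cells to 1. Gate limits halved gave 0 lower in the latter and 2 higher in BMSC-gated cells. Leaving out the highest cell gave 3 higher and 1 lower in callus than intact Col15a1-gated cells, and the stricter cell filter (1000 genes, 5% mt-) also 1 lower there. The 100-UMI filter gave 2 higher there and 1 higher in Col15a1-gated intact cells over Pi16-gated ones. Requiring a UMI in each group gave 2 lower in that comparison and 4 lower in BMSC-gated cells, the latter also when 20 UMIs were required besides, and the mean of per-cell CPM gave 2 higher in BMSC-gated cells. The other 158 of 174 alternative values of these counts were within 1.5 times. With clusters the C1qtnf3-led cells leave the fibroblasts and 2 unnamed clusters leave the Pi16 type. The part of these and of other causes was not tested. Scrublet called 3 intact and 4 callus cells as doublets, so the 12 and 87 highest scores were also removed, which moved no count. This and the 20-UMI filter with a UMI in each group were chosen after seeing the data. With gate limits doubled, 4 of the 7 comparisons gave no value. Depth limits the rare genes: in 28 thinned callus Col15a1-gated cells 0 cells still allows 12.3%.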
